A study of Mus musculus with 8 samples.

Results

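A set of 9 red cell genes other than the globins was followed in platelet RNA, and each was set beside the summed globin transcripts of the same mouse. They are Alas2, Fech, Bpgm, Mkrn1, Slc4a1, Slc25a37, Adipor1, Bsg and Ube2l6, taken by symbol as 9 of the 43548 genes in the table. All 9 are transcripts of erythroblasts or reticulocytes, although several are made by many other cell types too. They were selected on their levels by genotype and on the globin levels measured in these 8 mice, so their levels by genotype are given as a description with no test read from them. The relation to the globins is also not independent of that choice, because those values were known as well.

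Platelets came from TNFdARE mice, which lack the AU-rich element of Tnf and therefore make TNF-α constitutively in the cells that express the gene, and from littermate controls on the C57BL/6J background. Arthritis and inflammatory bowel disease develop in the TNFdARE strain. Each group had 4 mice aged 8 to 12 weeks at baseline, 2 females and 2 males by their labels, and all 8 carry the same batch date. Parts of the sample descriptions contradict this, speaking of fewer mice of each kind or of older males.

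The values are read as FPKM, a level per transcript length and per mapped fragment, and the number of reads is unknown. A single ribosomal locus, AY036118, held 33.7% to 67.7% of the summed FPKM of a library, and the number of genes above 0 ran from 818 to 4917. Control mice 1 to 4 had 734, 843, 2173 and 822 FPKM of summed globin (Hba-a1, Hba-a2, Hbb-bs and Hbb-bt). TNFdARE mice 1 to 4 had 6802, 1093, 2896 and 14556 FPKM. TNFdARE mice 1 and 4 therefore stand apart as the libraries with the most globin and, at 818 and 1225, the fewest genes above 0. The genotype differences and the relation to the globins are given with and without them. In bulk RNA, more red cells and more RNA per red cell cannot be told apart.

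Heme is built in steps that begin and end in the mitochondrion. ALAS2 is the erythroid form of the first enzyme, mitoferrin 1 (Slc25a37) brings in the iron, and ferrochelatase (Fech) inserts it into protoporphyrin. Reticulocytes, the youngest red cells in blood, have lost the nucleus but still hold RNA for hemoglobin, membrane and remodelling proteins, whereas mature red cells hold very little.

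RefSeq promoter sequences (GRCm38.p6) were matched for 5 of the 9 genes, Alas2, Bpgm, Mkrn1, Adipor1 and Ube2l6. Fech, Slc4a1, Slc25a37 and Bsg were not matched. The 250 bases before each start were searched on both strands for AGATAA, a form of the GATA motif, and for CCACCC, a core of the motif bound by erythroid Krüppel-like factor. The 5 genes have 7 starts, and a gene is counted if any of its starts matched, while shares of all promoters are counted per start. AGATAA lay in 1 of these 5 genes, Alas2, 86 bases before its start, and in 9.99% of all 32851 promoters. CCACCC lay in 3 of them, Alas2, Adipor1 and Ube2l6, and in 28.1% of all promoters. Bpgm and Mkrn1 had neither within this window. The 3 stretches below are shown because they hold these letters in genes that varied with the globins, and capitals mark TTATCT, the reverse of AGATAA, or GGGTGG, the reverse of CCACCC. The Alas2 stretch ends where the annotated transcripts begin, so its 3 CCACCC matches, 30 to 40 bases before the RefSeq start, lie past the end of it. The matches are a description of the letters and were not measured as binding.
Alas2 (chrX:150547167-150547374, plus strand): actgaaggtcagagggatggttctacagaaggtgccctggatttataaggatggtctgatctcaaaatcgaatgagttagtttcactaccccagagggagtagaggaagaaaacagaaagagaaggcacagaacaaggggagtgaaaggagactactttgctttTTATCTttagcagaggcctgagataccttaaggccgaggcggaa
Adipor1 (chr1:134415128-134415377, plus strand): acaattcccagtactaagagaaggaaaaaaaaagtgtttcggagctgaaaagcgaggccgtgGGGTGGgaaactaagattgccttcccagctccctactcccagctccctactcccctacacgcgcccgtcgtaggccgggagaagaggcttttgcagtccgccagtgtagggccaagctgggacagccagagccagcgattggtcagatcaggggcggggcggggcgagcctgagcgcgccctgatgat
Ube2l6 (chr2:84798578-84798827, plus strand): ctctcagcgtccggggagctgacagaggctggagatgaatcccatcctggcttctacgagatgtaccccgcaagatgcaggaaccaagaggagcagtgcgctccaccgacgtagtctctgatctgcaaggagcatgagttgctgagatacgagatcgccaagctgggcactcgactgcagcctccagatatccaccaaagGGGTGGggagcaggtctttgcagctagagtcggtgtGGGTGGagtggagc

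Both heme enzymes had higher mean levels in TNFdARE platelets, and in both most of the difference came from mice 1 and 4. Alas2 (ENSMUSG00000025270, X:150547375-150570638, plus strand, mm10) stood at 8.68, 9.34, 21.0 and 7.18 FPKM in control mice 1 to 4. In TNFdARE mice 1 to 4 it stood at 109, 11.9, 30.0 and 84.1 FPKM. TNFdARE mouse 2 lay inside the control range, set by control mouse 3, and the other 3 TNFdARE mice lay above it. The mean was 11.6 ± 6.39 FPKM in controls and 58.7 ± 45.4 FPKM in TNFdARE mice (SD, n = 4 each), a ratio of 5.08. Alas2 overlaps Apex2, an endonuclease gene on the opposite strand, with 312 bases of shared transcript at 100% identity, and the strand used in counting is not given in the sources used here. Apex2 stood at 5.82 to 15.3 FPKM in controls and at 43.8, 6.70, 29.0 and 78.7 FPKM in TNFdARE mice 1 to 4, and reads from the shared bases cannot be assigned to either gene without strand.

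Fech (ENSMUSG00000024588, 18:64452914-64490251, minus strand) was listed at 0, 0.519, 1.52 and 0.0503 FPKM in control mice 1 to 4. It stood at 7.23, 1.31, 1.93 and 6.67 FPKM in TNFdARE mice 1 to 4. As for Alas2, only TNFdARE mouse 2 fell within the control range, and control mouse 3 was the highest control. The mean was 0.522 ± 0.705 FPKM in controls and 4.28 ± 3.09 FPKM in TNFdARE mice, and Fech passed the filter on low values through the TNFdARE group alone. Stretches of the Fech transcripts of up to 478 bases matched other loci at 95% identity or more. The 6 other enzymes of the pathway that were listed did not reach a mean of 1 FPKM. Alas1, Alad, Uros and Cpox were listed at 0 in all 8 libraries, Urod was above 0 in 2 and Ppox in 3. The cause of such zeros was not tested, and they are not read as absence.

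The mitochondrial iron importer and the red cell anion exchanger were near the limit of what these libraries show. Slc25a37 (ENSMUSG00000034248, 14:69241848-69285112, minus strand) was listed at 2.95, 0.564, 0.596 and 0 FPKM in control mice 1 to 4 and at 2.08, 0, 0.414 and 5.09 FPKM in TNFdARE mice 1 to 4. The groups overlapped fully apart from TNFdARE mouse 4, and the gene overlaps 4 others in the annotation. Slc4a1 (ENSMUSG00000006574, 11:102348824-102366203, minus strand), which encodes band 3, was listed at 0, 0.338, 1.53 and 0.405 FPKM in controls and at 1.40, 0.558, 0.807 and 0.279 FPKM in TNFdARE mice. Its mean over all mice was 0.665 FPKM, so it was the 1 member below the filter, and no TNFdARE mouse exceeded control mouse 3.

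Bpgm (ENSMUSG00000038871, 6:34476207-34505613, plus strand) encodes the mutase that makes 2,3-bisphosphoglycerate, which lowers the oxygen affinity of hemoglobin. It stood at 3.60, 1.12, 6.56 and 1.46 FPKM in control mice 1 to 4 and at 10.3, 4.47, 3.93 and 25.2 FPKM in TNFdARE mice 1 to 4. TNFdARE mice 1 and 4 were above every control, and TNFdARE mice 2 and 3 were within the control range. The means were 3.18 ± 2.50 and 11.0 ± 9.93 FPKM, a ratio of 3.45.

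Adipor1 (ENSMUSG00000026457, 1:134415378-134433351, plus strand), an adiponectin receptor that many tissues express, was the only member whose groups did not overlap. Control mice 1 to 4 held 3.50, 3.39, 6.64 and 5.89 FPKM. TNFdARE mice 1 to 4 held 22.8, 13.1, 8.87 and 74.2 FPKM. The lowest TNFdARE mouse, number 3, was nearest to the highest control, and mouse 4 was far above the others. The means were 4.86 ± 1.66 and 29.8 ± 30.2 FPKM, a ratio of 6.12. Groups did not overlap, with TNFdARE higher, for 0.847% of the 1534 genes tested, and for 3.32% in either direction.

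Ube2l6 (ENSMUSG00000027078, 2:84798828-84810335, plus strand) encodes an E2 enzyme that conjugates ubiquitin and the ubiquitin-like protein ISG15. It stood at 3.30, 3.37, 6.06 and 1.31 FPKM in control mice 1 to 4 and at 16.3, 1.94, 8.69 and 35.2 FPKM in TNFdARE mice 1 to 4. TNFdARE mouse 2 was below 3 of the controls, and the other 3 TNFdARE mice were above all of them. The means were 3.51 ± 1.95 and 15.6 ± 14.4 FPKM, a ratio of 4.43. Of the other genes of ISG15 conjugation, only Uba7, the E1 enzyme, was tested, and its r with the summed globins was 0.11.

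Mkrn1 and Bsg showed no such pattern. Mkrn1 (ENSMUSG00000029922, 6:39397804-39420462, minus strand), a RING-finger ubiquitin ligase, stood at 32.5, 22.7, 21.6 and 23.6 FPKM in control mice 1 to 4 and at 19.1, 24.9, 24.3 and 28.2 FPKM in TNFdARE mice 1 to 4. Its highest and lowest mice differed 1.70-fold, against 15.2-fold for Alas2, 21.9-fold for Adipor1 and 26.8-fold for Ube2l6. Mkrn1 shares 1259 bases at 95.7% identity with the pseudogene Mkrn1-ps1, which was listed at 9.86 to 30.0 FPKM, so the split of reads between the 2 is uncertain. Bsg (ENSMUSG00000023175, 10:79704491-79711969, plus strand) encodes basigin, a membrane glycoprotein and partner of lactate transporters. It stood at 14.4, 11.8, 20.1 and 20.2 FPKM in control mice 1 to 4 and was listed at 0, 20.1, 12.7 and 23.7 FPKM in TNFdARE mice 1 to 4. The 0 in TNFdARE mouse 1, the library with the fewest genes above 0, set the lower TNFdARE mean of 14.1 ± 10.4 FPKM against 16.6 ± 4.22 FPKM in controls.

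**Figure D1:**
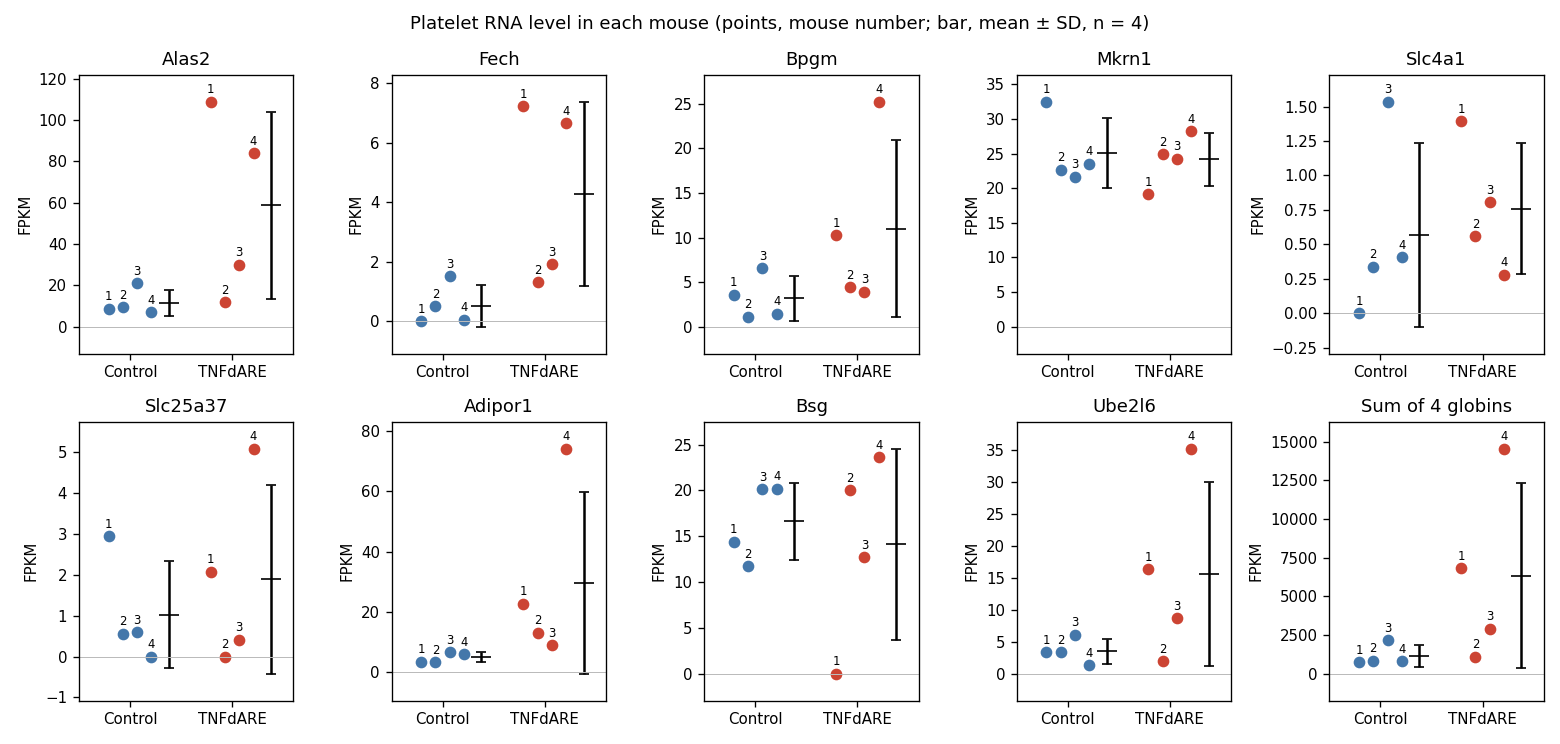
FPKM of each of the 9 genes and of the summed globins in each mouse, with 4 control and 4 TNFdARE mice as points numbered by mouse, and bars for the group mean and SD. TNFdARE mice 1 and 4 lead for Alas2, Fech, Bpgm, Adipor1 and Ube2l6, as they do for the globins, while Mkrn1 stays between 19.1 and 32.5 FPKM.

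Differences were taken as log2(FPKM + 1), a scale on which low genes appear to change less than they do. The difference of TNFdARE minus control was 1.92 for Alas2 (SE 0.69), 1.68 for Fech (SE 0.72), 1.37 for Bpgm (SE 0.73), 1.98 for Adipor1 (SE 0.68) and 1.47 for Ube2l6 (SE 0.78). It was 0.36 for Slc25a37 (SE 0.78), -0.048 for Mkrn1 (SE 0.46) and -0.91 for Bsg (SE 0.89). The unadjusted limma p was under 0.05 for 3 of the 8 members that passed the filter, Alas2, Fech and Adipor1, and for 4.5% of the 1534 genes tested (1.76% higher and 2.74% lower in TNFdARE). All 3 were higher, and Fech could be counted at all only because of its TNFdARE levels. None of the 1534 passed after Benjamini-Hochberg adjustment in limma, where 69 had an unadjusted p under 0.05 and the smallest adjusted p was 0.86. The counts of members repeat the contrast that chose the genes, and nothing is read from them. Without TNFdARE mice 1 and 4, 0 of the 8 members and 4.17% of all genes tested had an unadjusted p under 0.05, and the log2 difference was 0.79 for Alas2, 0.88 for Fech, 0.50 for Bpgm, 1.06 for Adipor1 and 0.35 for Ube2l6. In the same fit the log2 difference was -0.57 for Slc25a37, -0.0093 for Mkrn1 and -0.018 for Bsg.

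The median log2 difference of all genes tested was -0.30 as deposited and -0.06 after quantile normalization, a shift that bears on every difference near 0. Relative to that median, Mkrn1 stood at 0.25 as deposited and at 0.081 after quantile normalization, and Bsg at -0.61 and -0.58. Alas2 stood at 2.22 above the median under either scaling, and Adipor1 at 2.27 and 2.37.

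Sex, which the choice of genes did not use, was tested with genotype in the same model. None of the 8 members tested had an unadjusted limma p under 0.05 for male against female, against 2.54% of all genes tested, and no gene passed after adjustment. Alas2 was 0.79 higher in males on the log2 scale (SE 0.69) and Bsg differed by -1.38 (SE 0.84), both within 2 standard errors of 0. Alas2 was at least 84.1 FPKM in TNFdARE mouse 1, a male, and in TNFdARE mouse 4, a female. The genotype difference was also not shown to differ between the sexes for any member (interaction in limma, unadjusted p under 0.05 for 0 of 8 members and 3.52% of all genes, 0 after adjustment). With 2 mice per sex and genotype, the standard errors of the interaction were 1.11 for Mkrn1 and 1.44 or more for the other members tested.

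The level of each gene was next related to the summed globins across the 8 mice, on log2(FPKM + 1). Alas2, Ube2l6 and Fech had the highest Pearson r of the 9. Alas2 had r = 0.965 (exact permutation test over 40320 pairings, two-sided, p = 0.00102, adjusted p = 0.0759 over 1530 genes) and a Spearman rho of 0.952 (exact p = 0.00114). Alas2 was lowest in the 4 mice with globin sums of 734 to 1093 FPKM, and higher in control mouse 3 and then TNFdARE mouse 3. In the 2 richest mice the order turned, with more Alas2 in TNFdARE mouse 1 and more globin in TNFdARE mouse 4. Fech had r = 0.951 (exact permutation p = 0.000198, adjusted p = 0.0506) and rho = 0.976 (exact p = 0.000397). Ube2l6 had r = 0.962 (exact permutation p = 0.000645, adjusted p = 0.0705) and rho = 0.881 (exact p = 0.00724).

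The coefficients of Bpgm and Adipor1 were also high. Bpgm had r = 0.905 (exact permutation p = 0.00176, adjusted p = 0.0898) and rho = 0.833 (exact p = 0.0154). Adipor1 had r = 0.904 (exact permutation p = 0.00288, adjusted p = 0.110) and rho = 0.857 (exact p = 0.0107). Without TNFdARE mice 1 and 4, the 2 farthest from the median globin level, r over 6 mice was 0.618 for Bpgm (exact permutation p = 0.176) and 0.518 for Adipor1 (exact p = 0.272). In the same 6 mice it was 0.983 for Alas2 (exact permutation p = 0.00417), 0.879 for Fech (exact p = 0.0181) and 0.83 for Ube2l6 (exact p = 0.0556). These 6 mice span a narrower range of globin than all 8. For Bpgm and Adipor1 the relation was not shown in them, with a lower r and an exact permutation p above 0.05. With any 1 mouse left out, the r of Bpgm and Adipor1 was 0.792 or more. The r of Ube2l6 was also lower over the 6 mice, at 0.83 against 0.962, with an exact permutation p above 0.05. These values are a description, since the members were chosen with the globin levels known, and whether the coefficients differ between genes was not tested.

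The other 4 genes were not shown to vary with the globins. Slc25a37 had r = 0.618 (exact permutation p = 0.104, adjusted p = 0.494) and rho = 0.359 (exact p = 0.379), and r was -0.221 without TNFdARE mice 1 and 4 but 0.921 without control mouse 1. Slc4a1 had r = 0.364 (exact permutation p = 0.372) and rho = 0.405 (exact p = 0.327). Its r was 0.836 without TNFdARE mouse 4, whose Slc4a1 was low for its globin (exact permutation p = 0.019). Without TNFdARE mice 1 and 4 the r of Slc4a1 was 0.817 (exact permutation p = 0.0306). Mkrn1 had r = -0.178 (exact permutation p = 0.671, adjusted p = 0.845) and rho = -0.238 (exact p = 0.582), and its r was -0.596 when the libraries were rescaled without AY036118 (exact permutation p = 0.121) and -0.388 with quantile normalization (exact p = 0.334). Bsg had r = -0.331 (exact permutation p = 0.456, adjusted p = 0.743) and rho = 0.0238 (exact p = 0.977), and leaving out TNFdARE mouse 1, with its 0, gave r = 0.460. Without TNFdARE mice 1 and 4, r was -0.443 for Mkrn1 (exact permutation p = 0.404) and -0.022 for Bsg (exact p = 0.944).

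**Figure D2:**
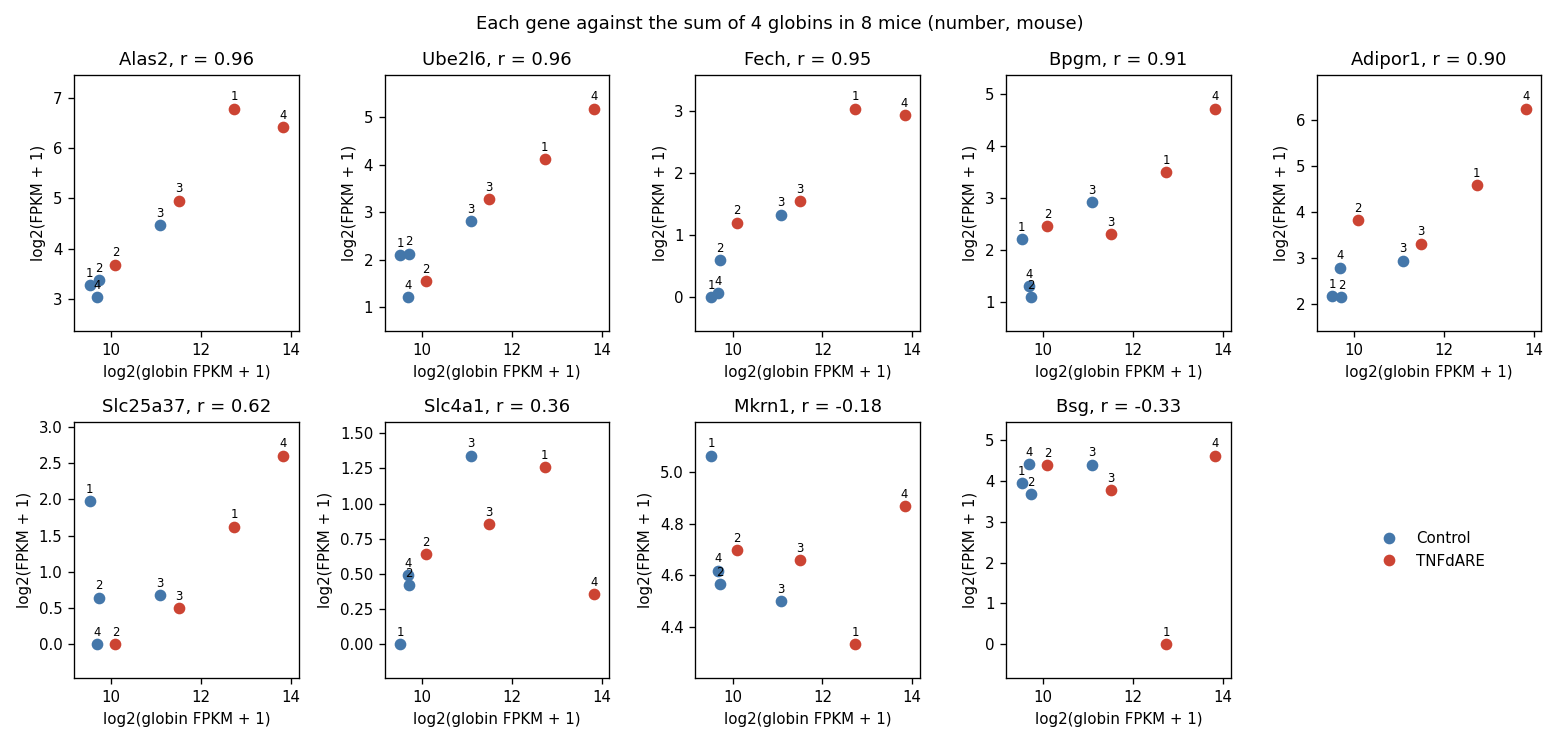
Level of each gene against the summed globins in the same mouse, both as log2(FPKM + 1), with 1 point per mouse numbered within its group, the Pearson r of each panel and a vertical scale of its own in each. Alas2, Fech and Ube2l6 climb with the globins at r of 0.951 to 0.965, and Mkrn1 scatters over a narrow scale at r = -0.178.

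Several members and the globins had higher means in TNFdARE mice, so the relation was also computed after subtracting each group's mean, with mice permuted within genotype. The centred r was 0.932 for Alas2 (exact permutation p = 0.0156, adjusted p = 0.509), 0.913 for Fech (exact p = 0.00868), 0.951 for Ube2l6 (exact p = 0.0156), 0.840 for Bpgm (exact p = 0.0347) and 0.810 for Adipor1 (exact p = 0.0694). An unadjusted p under 0.05 with r above 0 was thus reached by 5 of the 8 members tested in the pooled relation, where 2.48% of all genes did so, and by 4 of 8 in the centred one, against 1.96%. The members were chosen with these globin values known and Fech entered through its TNFdARE levels, so nothing is read from those counts. No gene passed an adjusted p of 0.05 in either, with 38 genes at an unadjusted p under 0.05 and r above 0 in the pooled relation and 30 in the centred one. Far more genes, 168 or 11%, had r below 0 at an exact permutation p under 0.05 in the pooled relation, and 0 of the 8 members did. The smallest adjusted p was 0.0506 pooled and 0.379 centred. The median r with the globins was -0.26 over all 1530 genes, and the 5 members with r of 0.904 or more were among the 9 genes, 0.588% of those tested, with r of at least 0.9.

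Depth-related measures were set beside the same relation. The number of genes above 0 had r = -0.471 and rho = -0.262 with the globins across the 8 mice, both on a log2 scale, r from -0.55 to -0.43 with Alas2, Fech, Bpgm, Adipor1 and Ube2l6, and r = -0.77 with Slc25a37. The share of AY036118 had r = 0.435 with the globins, 0.599 with Alas2, 0.605 with Fech and -0.844 with Bsg. These r values are descriptions over 8 libraries, and the part of depth in the relation was not tested. Rescaling the libraries to equal totals without AY036118 left 5 members with an exact permutation p under 0.05. The share of all genes under that rescaling is not given here, so nothing is read from this count.

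Set against the globins of the same mouse, Alas2 kept a narrow ratio. It came to 11.8, 11.1, 9.68 and 8.74 FPKM per 1000 FPKM of globin in control mice 1 to 4 and to 16.0, 10.9, 10.4 and 5.78 in TNFdARE mice 1 to 4. The means were 10.3 ± 1.38 in controls and 10.8 ± 4.18 in TNFdARE mice, and the extremes differed 2.77-fold while the Alas2 level itself spanned 15.2-fold. The ratio to globin spanned 2.82-fold for Ube2l6, 3.69-fold for Bpgm and 3.93-fold for Adipor1. For Fech, which lies near the limit of these libraries, it was 0 in control mouse 1 and otherwise ran from 0.0612 to 1.20, a 19.6-fold span, with means of 0.344 ± 0.364 in controls and 0.847 ± 0.344 in TNFdARE mice. For Mkrn1 it spanned 22.8-fold, from 44.2 FPKM per 1000 FPKM of globin in control mouse 1 to 1.94 in TNFdARE mouse 4. On log2(FPKM + 1) low genes such as Fech appear to change less than they do, so slopes are not ranked between genes. The slope of level on globin on that scale was 0.88 ± 0.10 for Alas2, 0.81 ± 0.09 for Ube2l6, 0.78 ± 0.15 for Adipor1, 0.70 ± 0.09 for Fech, 0.67 ± 0.13 for Bpgm and -0.025 ± 0.057 for Mkrn1 (slope ± SE, n = 8). In the 6 mice other than TNFdARE mice 1 and 4 it was 0.90 ± 0.083 for Alas2, 0.77 ± 0.26 for Ube2l6, 0.71 ± 0.19 for Fech, 0.53 ± 0.34 for Bpgm and 0.41 ± 0.34 for Adipor1 (n = 6).

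Among themselves the 9 genes ranged from closely related to opposed. The 10 pairs within Alas2, Fech, Bpgm, Adipor1 and Ube2l6 had r from 0.80 to 0.975 across the 8 mice, highest for Alas2 with Fech, the first and last enzymes of heme synthesis. Without TNFdARE mice 1 and 4 these 10 pairs ran from 0.038, for Adipor1 with Ube2l6, to 0.89 over 6 mice, with Alas2 and Fech still the highest. Over all 36 pairs r had a median of 0.442, and 12 pairs were at 0.7 or above, where 6.59% of all gene pairs are. Slc25a37 had r = 0.754 with Ube2l6 and 0.713 with Bpgm, and 0.50 to 0.59 with Fech, Adipor1 and Alas2. Slc25a37 was listed at 0 in 2 libraries and was highest in TNFdARE mouse 4. Its pairs are not given without TNFdARE mice 1 and 4. Slc4a1 and Mkrn1 were the most opposed pair, at r = -0.842. Mkrn1 and Bsg had r below 0.1 with each of Alas2, Fech, Bpgm, Adipor1 and Ube2l6. The pairs share the same 8 libraries and their depth, so these values are a description.

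**Figure D3:**
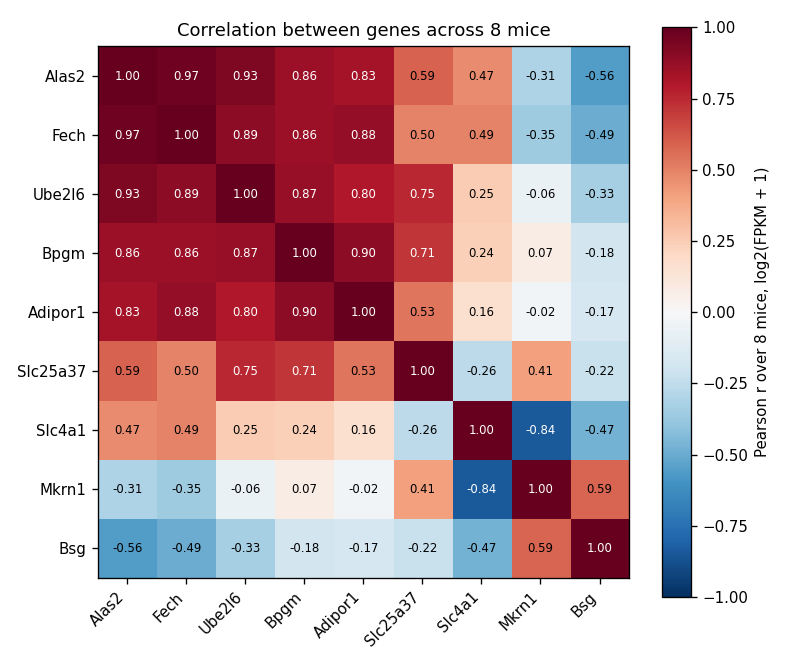
Pearson r between the 9 genes over the 8 mice on log2(FPKM + 1), with colour from blue at -1 to red at 1 and the value in each square. The 5 genes at upper left are joined by r of 0.80 or more, and Mkrn1 and Bsg stand outside that group.

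The genes whose levels over the 8 mice were most like the mean standardized profile of the 9, among 577 genes with a mean of at least 5 FPKM, were Hba-a1 (r = 0.954), Hbb-bs (r = 0.952), Apex2 (r = 0.934), Hba-a2 (r = 0.932) and Hbb-bt (r = 0.918). Hba-a1 ran from 238 to 621 FPKM in controls and stood at 1936, 337, 912 and 4680 FPKM in TNFdARE mice 1 to 4. The members were selected with the globin levels of these mice known, so the place of the 4 globins is a description. The r of these 5 genes with the profile was 0.78 to 0.87 without TNFdARE mice 1 and 4. Apex2 is the gene that overlaps Alas2.

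Other genes of red cell biology varied widely in their relation to the globins. Of 77 listed genes of heme synthesis, iron and heme transport, the red cell membrane and skeleton, reticulocyte maturation and red cell enzymes, 76 were matched and 21 were tested. By genotype, 1 was higher and 1 lower in TNFdARE at an unadjusted limma p under 0.05, where 1.76% and 2.74% of all genes tested were. After adjustment 0 passed. Without TNFdARE mice 1 and 4, 0 of these genes had such an unadjusted limma p, against 4.17% of all genes tested. The median log2 difference of the 21 was 0.21 against -0.30 for all genes tested. Their median r with the globins was -0.064, against -0.26 for all genes, with 3 of the 21 (14.3%) above 0 and 1 (4.76%) below 0 at an exact permutation p under 0.05, where 2.48% and 11% of all genes were.

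Gpx1, a glutathione peroxidase abundant in red cells, was the gene higher in TNFdARE at an unadjusted limma p under 0.05. The difference was 1.40 on the log2 scale (SE 0.57, limma adjusted p = 0.86). Without TNFdARE mice 1 and 4, Gpx1 did not reach an unadjusted limma p under 0.05. It stood at 16.9, 16.9, 32.1 and 24.3 FPKM in control mice 1 to 4 and at 104, 24.3, 41.0 and 115 FPKM in TNFdARE mice 1 to 4, with r = 0.974 to the globins (exact permutation p = 0.000174, adjusted p = 0.0506) and a centred r of 0.951 (exact p = 0.00694). Its r was 0.928 without TNFdARE mice 1 and 4 (exact permutation p = 0.00972). In Gpx1, as in Alas2, TNFdARE mouse 2 lay within the control range and mice 1 and 4 led.

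For Nprl3, a regulator of mTORC1 whose introns hold the α-globin enhancers, the log2 difference was -1.91 (SE 0.86, limma adjusted p = 0.86). Its r with the globins was -0.71 (exact permutation p = 0.0486). Nprl3 was listed at 0 in TNFdARE mice 1 and 4, the libraries with the most globin and the fewest genes above 0. Its mean was 7.58 FPKM in controls, with 18.4 FPKM in control mouse 1, and 0.966 FPKM in TNFdARE mice. Nprl3 therefore passed the filter on low values through the control group alone. The cause of these zeros was not tested, so neither value is read as a fall of Nprl3. Ucp2, a mitochondrial carrier, had r = 0.749 (exact permutation p = 0.0336, adjusted p = 0.305), and Tent5c, a poly(A) polymerase, had r = 0.811 (exact p = 0.0183, adjusted p = 0.241). Centred on genotype, r was -0.474 for Nprl3 (exact permutation p = 0.191), 0.828 for Ucp2 (exact p = 0.0417) and 0.659 for Tent5c (exact p = 0.240). The 3 genes had r of -0.423, 0.353 and 0.220 without TNFdARE mice 1 and 4, and none had an exact permutation p under 0.05. Rnf10, a RING-finger protein, had r = 0.63, and the iron-sulfur scaffold Iscu and the mitochondrial carrier Slc25a39 had r of 0.54 and 0.48. For the skeleton and membrane genes r was 0.47 for Add1 (adducin), -0.064 for Epb41 (protein 4.1) and -0.40 for Stom (stomatin), and for catalase (Cat) it was 0.063. Of the genes named here, those from Rnf10 on had an exact permutation p above 0.05.

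**Figure D4:**
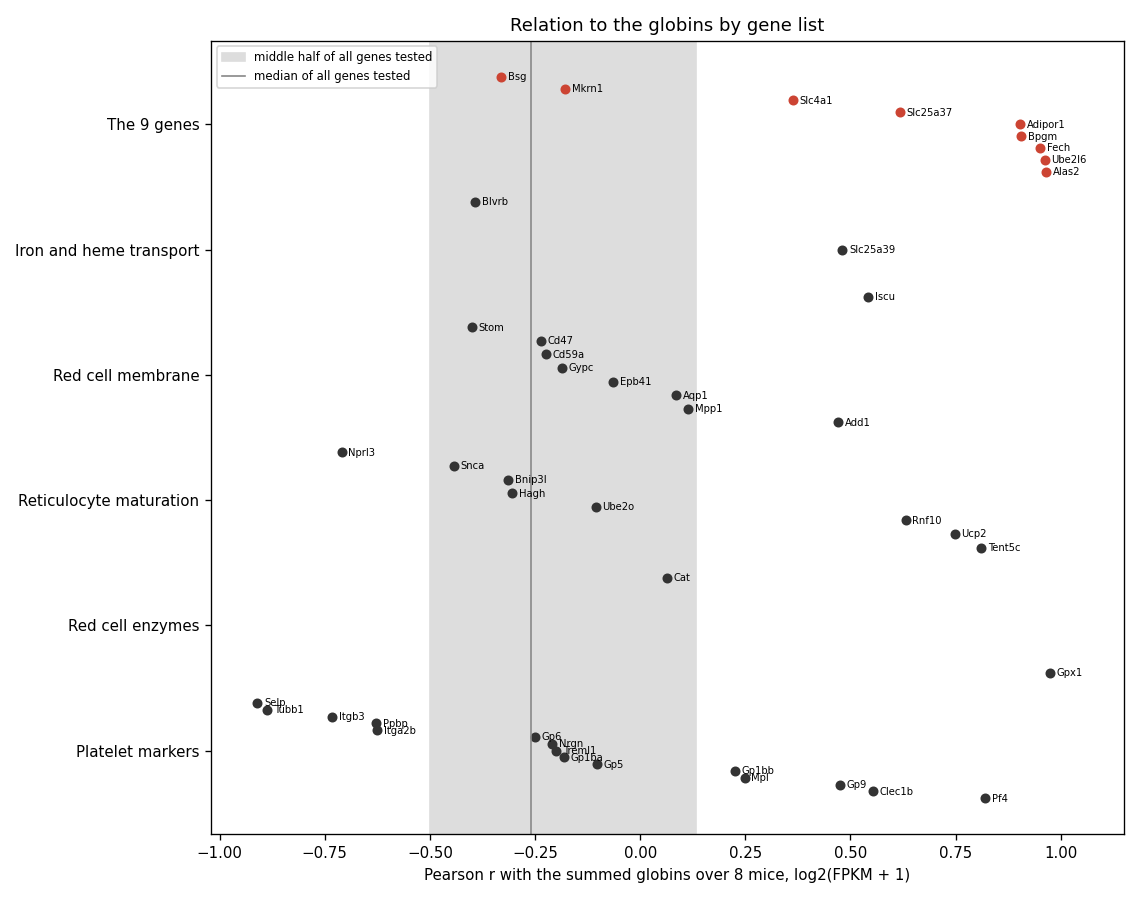
Pearson r with the summed globins over the 8 mice for the 9 genes in red and for tested genes of other lists in black, with a line at the median of all genes tested, -0.26, and grey from -0.50 to 0.13 for their quartiles. Alas2, Fech, Ube2l6, Bpgm and Adipor1 lie at 0.904 or more, as does Gpx1, while the tested red cell membrane genes other than Add1 lie within the grey band.

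Markers of the platelets themselves and of other blood cells were read in the same libraries. All 15 platelet and megakaryocyte markers were detected, and their summed level was 1238 to 1735 FPKM in controls and 1171 to 1315 FPKM in TNFdARE mice. None of the 15 passed an unadjusted limma p of 0.05 by genotype, where 4.5% of all genes tested did. The log2 difference was below 0 for 11 of the 15. The median of the 15 was -0.39, against -0.30 for all genes tested, so nothing is read from that count. Their median r with the globins was -0.20, near that of all genes, and an exact permutation p under 0.05 was reached by 1 of the 15 with r above 0 and by 3 with r below 0, where 2.48% and 11% of all genes did so. The chemokine gene Pf4 was the 1 above 0, with r = 0.82 (exact permutation p = 0.0145). The 3 below 0 were Tubb1, the platelet β-tubulin, with r = -0.89 (exact p = 0.00672), Selp, P-selectin, with r = -0.91 (exact p = 0.00317), and Itgb3, integrin β3, with r = -0.73 (exact p = 0.0402). Selp was listed at 0 in TNFdARE mice 1 and 4, the libraries with the most globin and the fewest genes above 0. Centred on genotype, the exact permutation p was 0.0191 for Pf4 and 0.00347 for Selp, and it was 0.0608 for Tubb1 and 0.113 for Itgb3. Without TNFdARE mice 1 and 4, Pf4 had r = 0.887 (exact permutation p = 0.025), and Tubb1, Selp and Itgb3 had r of -0.752, -0.640 and -0.196 with an exact p of 0.0778 or more. Neutrophil markers summed to 0 to 3.66 FPKM in controls and 0 to 10.3 FPKM in TNFdARE mice, with S100a8 at 0 in all 8 libraries and S100a9 above 0 only in TNFdARE mouse 4. Monocyte and macrophage markers summed to 30.8 to 59.3 FPKM in controls and 18.2 to 37.5 FPKM in TNFdARE mice. This was mostly Lyz2 except in TNFdARE mouse 1, where Cd74 stood at 13.7 FPKM and Lyz2 at 11.9 FPKM. The r of Lyz2 with the globins was -0.76 (exact permutation p = 0.0272), and centred on genotype the exact permutation p was 0.337. Without TNFdARE mice 1 and 4 the r of Lyz2 was -0.254 (exact permutation p = 0.622). B and T cell markers summed to 0 in every control and to at most 1.45 FPKM in TNFdARE mice, with Cd79a and Cd3e at 0 in all 8. The part of these other cells in the levels of the 9 genes was not tested.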

How the data were processed

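The libraries were made from platelet RNA of 4 TNFdARE and 4 littermate control mice, isolated with TRIzol followed by a DNase step and a column clean-up. Sequencing was on an Illumina NovaSeq with reads of 150 bp. The table the authors deposited gives each gene 1 value in each mouse, read here as FPKM. The unit was inferred from Cufflinks, which the submitters' processing notes name with mm10, and from column totals that differ. Versions, strand and the treatment of shared reads are not given in the sources used here. FPKM depends on the other transcripts of a library, so a large share of AY036118 or globin lowers all others. Low values gave no step that could be read as 1 fragment, so depth is unknown and no interval could be given.

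Genes with a mean of at least 1 FPKM (1534) were compared by limma (version 3.58.1, R 4.3.3) on log2 values with a pseudocount of 1, with a trend and Benjamini-Hochberg adjustment. Correlations used exact permutation of all pairings, two-sided, with adjustment over 1530 genes (globins left out). Both were tested on simulated data.

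The members, lists and tests were chosen with earlier results of these data known. Named are the members, globins, genes of the red cell lists with a mean of at least 5 FPKM, defining markers of other cells, and the 5 genes most like the members' mean profile. Most platelet markers are given only as a set, and the listed transcription factors, such as Nfe2, Tal1 and Gata1, are not described. Apex2 as a partner of Alas2, Mkrn1-ps1, Nprl3, Tent5c, Uba7, Tubb1, Selp and Itgb3 were added after their values were seen. Of the listed genes 6 were matched by identifier, and Ahsp and Zfpm1 were not analysed here. One item is not reported here. Alternatives were pseudocounts of 0.1 and 5, other filters, quantile normalization, rescaling without AY036118, sex as a covariate, a replicate block, leaving out each mouse and, added after seeing the data, leaving out TNFdARE mice 1 and 4. Similar transcripts were found with BLAST 2.17.0 in GENCODE M21 at 95% identity over at least 150 bases. Figures were drawn with matplotlib 3.10.9.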

Additional observations from a re-analysis of the deposited data

Results flagged for a closer look

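A mouse was flagged if its gap to the nearest, as a share of the group's range, passed Dixon's 95% critical value for 4 samples. Of 38 groups of 4 mice examined, 5 held such a mouse. About 1.9 would be expected by chance if the groups were independent and normally distributed. Several of these genes vary together, so the 2 numbers are not compared. Control mouse 3 was the highest control for Alas2 (21.0 FPKM, next 9.34, share 0.844), for the summed globins (2173 FPKM, next 843, share 0.924) and for Add1 (21.6 FPKM, next 4.47, share 0.888). TNFdARE mouse 4 held 69.1 FPKM of Iscu, next to 1.86 (share 0.973). TNFdARE mouse 1 held 18.8 FPKM of Add1, next to 5.35 (share 0.909).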

How the results depend on the processing

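In the relation to the globins, 4 to 6 members had an exact permutation p under 0.05 under the alternatives planned. With 1 mouse left out it was 5 to 6: the same 5 each time, with Slc25a37 added without control mouse 1 and Slc4a1, below the filter otherwise used, without TNFdARE mouse 4. Without TNFdARE mice 1 and 4 it was 3 (Alas2, Fech and Slc4a1). The share of all genes with such a p and r above 0 is given only for the main relation (2.48%) and the centred one (1.96%). Nothing is read from the counts of members under the other alternatives. By genotype the 3 members became 1 to 4 with 1 mouse left out (3% to 4.89% of all genes tested), 1 without control mouse 1 or 4 or TNFdARE mouse 1 or 4, and 0 without the last pair (4.17%). The interaction with sex gave 0 to 1 members, the 1 without TNFdARE mouse 3, and 0 without TNFdARE mice 1 and 4. For the interaction, the share of all genes is given only with all 8 mice (3.52%), so nothing is read from these counts. The list genes by genotype numbered 2 (4.5% of all genes tested). They became 1 with a pseudocount of 5 (3.85%), a mean of at least 5 FPKM (6.17%), quantile normalization (3.85%) or sex as a covariate (3.98%). They became 0 to 2 with 1 mouse left out (3% to 4.89%), and 0 without TNFdARE mice 1 and 4 (4.17%). The cause was not tested.

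Directions turned for Mkrn1, Slc25a37 and Bsg. The log2 difference of Mkrn1 was 0.021 with quantile normalization and ran from -0.12 to 0.078 with 1 mouse left out (above 0 without TNFdARE mouse 1 or control mouse 1), and its r from -0.684 to 0.153. For Slc25a37 the log2 difference ran from -0.12 without TNFdARE mouse 4 to 0.75 with 1 mouse left out, and was -0.57 without TNFdARE mice 1 and 4, where r was -0.221. For Bsg the log2 difference was -1.71 with a pseudocount of 0.1. With 1 mouse left out it ran from -1.38 to 0.16 and r from -0.765 to 0.460, both highest without TNFdARE mouse 1, and rho was 0.0238. Fech had an unadjusted limma p of 0.05 or more under 9 alternatives and Alas2 under 5. The log2 difference of Fech was 3.30 with a pseudocount of 0.1 and 0.70 with a pseudocount of 5.

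The numbers in the mouse titles did not pair the groups: same-numbered mice deviated with r from -0.067 to 0.060 across genes, and only TNFdARE mouse 1 resembled its own number best. The library names share a number between control mouse 1 and TNFdARE mouse 1 (r = 0.060) and between control mouse 4 and TNFdARE mouse 3 (r = 0.042), in each case the best match of that TNFdARE mouse. What that number marks is not stated, and no block was made from it. With the title number as a replicate block, 2 members and 2 list genes passed the unadjusted limma threshold, as did 4.17% of all genes tested, Fech no longer among them. Unknown depth limits what can be said of Fech, Slc4a1 and Slc25a37, which lie near 1 FPKM.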
